A study of Mus musculus with 6 samples.

Results

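The genes described here are 10 transcription factor genes of neurogenesis, read in cultured mouse NSP cells after knockdown of REST. They were taken as every probe set of the deposited table annotated to exactly 1 of Neurog1, Neurog2, Neurod1, Neurod2, Neurod4, Neurod6, Nhlh1, Nhlh2, Insm1 and Hes6, which gave 18 of 45101 probe sets, or 10 of 18194 named genes. A probe set is the group of short array probes that reads one transcript. RNA came from 6 samples of cells from embryonic (E12.5) mouse brains, and each was read on 1 array. The cells of every sample were grown on coated dishes, split, infected overnight with a lentivirus and cultured for another 6 days. In 3 samples the virus carried a control short hairpin RNA (labelled CTL, here control shRNA) and in 3 a hairpin against REST (REST shRNA). No genotype or strain is given, no reporter or sort selected the infected cells as far as the labels say, and separate cultures per sample are not stated, so p-values measure the spread between these arrays, which may be technical. The labels do not spell out NSP.

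Most of these factors belong to the basic helix-loop-helix (bHLH) family, proteins that pair with E proteins such as Tcf3, Tcf4 and Tcf12 and bind a short DNA element called the E-box. Neurog1 and Neurog2 are proneural factors that commit dividing progenitors to the neuronal fate, and Neurod and Nhlh factors follow them as cells leave the cycle and differentiate. Hes and Id proteins oppose them, and Notch signalling keeps Hes genes on in progenitors. Insm1 is not a bHLH protein but a zinc finger factor of neurogenic progenitors, and Hes6 is a Hes family member that acts against Hes1 and promotes differentiation. REST is a repressor that binds a DNA element named RE1 near many neuronal genes.

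The sequence upstream of the start was read for 9 of the 10 genes from the RefSeq promoter table (build GRCm38.p6), taking the 250 bases before the first listed start. Insm1 was the other gene. An E-box, spelled CANNTG and the same on both strands, stood in 6 of the 9 windows, against 66.0% of 27025 windows of the same length in the table. The E-box spelling CAGATG, one of those counted in CANNTG, stood on either strand in 3 of the 9 windows (Neurod2, Nhlh1 and Nhlh2), against 14.5% of all windows. The letters of the left part of the RE1 element, CAGCACC, were in 0 of the 9 and in 5.70% of all. Those of the right part, GGACAG, were in 2 of the 9 (Neurog2 and Nhlh2) and in 18.7% of all, with both strands searched. A match is a description of letters, not a binding site. Only these 250 bases were read, so an absence does not show that a gene lacks the element. The windows of 4 genes are shown because Neurod2 and Neurod6 had wide and alike signals over the arrays, Neurog2 the most divergent single array, and Nhlh2 both kinds of match. Each is written on the strand of its gene, from 5′ to 3′, with capitals at the E-boxes and at the RE1 part read on either strand (CTGTCC on the other strand), and no E-box overlapped an RE1 part.
Neurod2 (chr11:98329646-98329895, minus strand): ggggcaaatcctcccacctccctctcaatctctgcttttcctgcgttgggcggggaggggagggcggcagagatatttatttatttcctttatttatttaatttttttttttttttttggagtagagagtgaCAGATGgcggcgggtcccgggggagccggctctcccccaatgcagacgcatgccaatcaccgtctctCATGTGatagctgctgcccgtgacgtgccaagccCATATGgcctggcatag
Neurod6 (chr6:55681264-55681513, minus strand): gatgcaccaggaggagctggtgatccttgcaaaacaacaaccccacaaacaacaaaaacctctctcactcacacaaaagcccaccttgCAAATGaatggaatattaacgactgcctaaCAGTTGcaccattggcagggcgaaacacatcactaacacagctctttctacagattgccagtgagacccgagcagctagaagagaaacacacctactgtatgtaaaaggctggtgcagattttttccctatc
Neurog2 (chr3:127632886-127633135, plus strand): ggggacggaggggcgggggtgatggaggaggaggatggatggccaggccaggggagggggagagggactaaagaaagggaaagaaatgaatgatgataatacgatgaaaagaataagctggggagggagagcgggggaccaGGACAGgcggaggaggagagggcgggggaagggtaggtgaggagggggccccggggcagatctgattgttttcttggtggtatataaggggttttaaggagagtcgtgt
Nhlh2 (chr3:102009895-102010144, plus strand): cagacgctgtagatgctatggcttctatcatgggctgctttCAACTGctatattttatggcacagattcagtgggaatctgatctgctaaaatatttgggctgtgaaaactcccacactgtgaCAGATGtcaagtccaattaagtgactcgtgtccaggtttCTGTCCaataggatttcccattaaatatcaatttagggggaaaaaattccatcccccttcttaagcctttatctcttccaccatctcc

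The targeted gene was lower in the arrays labelled REST shRNA. All 4 probe sets of Rest read lower in REST shRNA in each of the 3 pairs of arrays that share a replicate number, at 57.3% to 71.5% of control, with unadjusted limma p from 0.00175 to 0.0323 and none past the adjusted threshold of 0.05. Markers of neural progenitors, neurons, astrocytes and the oligodendrocyte lineage were all present: every measured progenitor marker (8 of 8), neuron marker (10 of 10) and astrocyte marker (7 of 7), and 5 of 6 oligodendrocyte lineage markers, had a mean above 3.24, the highest log2 signal of 27 bacterial control probe sets. Whether the cultures held several cell types was not tested, and a signal above that level does not establish it. In bulk RNA fewer cells of a type and less RNA per cell cannot be told apart. Of 6 microglial markers 3 had a mean above that signal, and of 6 endothelial and fibroblast markers 2 did. These markers were read at the brightest probe set of each gene, and 71.6% of all probe sets had a mean above that signal. That share also counts dimmer probe sets of a gene and unnamed ones. At the brightest probe set, 13822 genes outside the 10 were above it, with 18193 genes tested. REST shRNA array 2 stood apart in astrocyte markers, whose mean log2 level was 8.08 there and 9.78 to 10.31 on the other arrays.

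No difference between REST shRNA and control passed the test for any of the 10 neurogenic factors, and in each of their probe sets the groups overlapped. In the limma fit over 45037 probe sets, 0 of the 18 member probe sets passed a Benjamini-Hochberg adjusted p of 0.05, where 0% of all probe sets did, and the adjusted p was 0.9998 for each of the 18. At an unadjusted p under 0.05 the members again gave 0 of 18, beside 3.46% of all probe sets (1560). In 0 of 18 did all REST shRNA arrays lie above all control arrays, beside 4.35% of all probe sets, and in 0 of 18 below, beside 3.9%. The difference in log2 signal, REST shRNA minus control, was positive for 11 member probe sets and negative for 7, with a median of 0.17, while the median over all probe sets was 0.01 and 52.6% were positive. For each of the 18 the difference was smaller than the range of the 3 control arrays alone. An exact permutation test over the arrays cannot go below 0.1 here, and its two-sided p ran from 0.2 to 1 over the members.

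**Figure D1:**
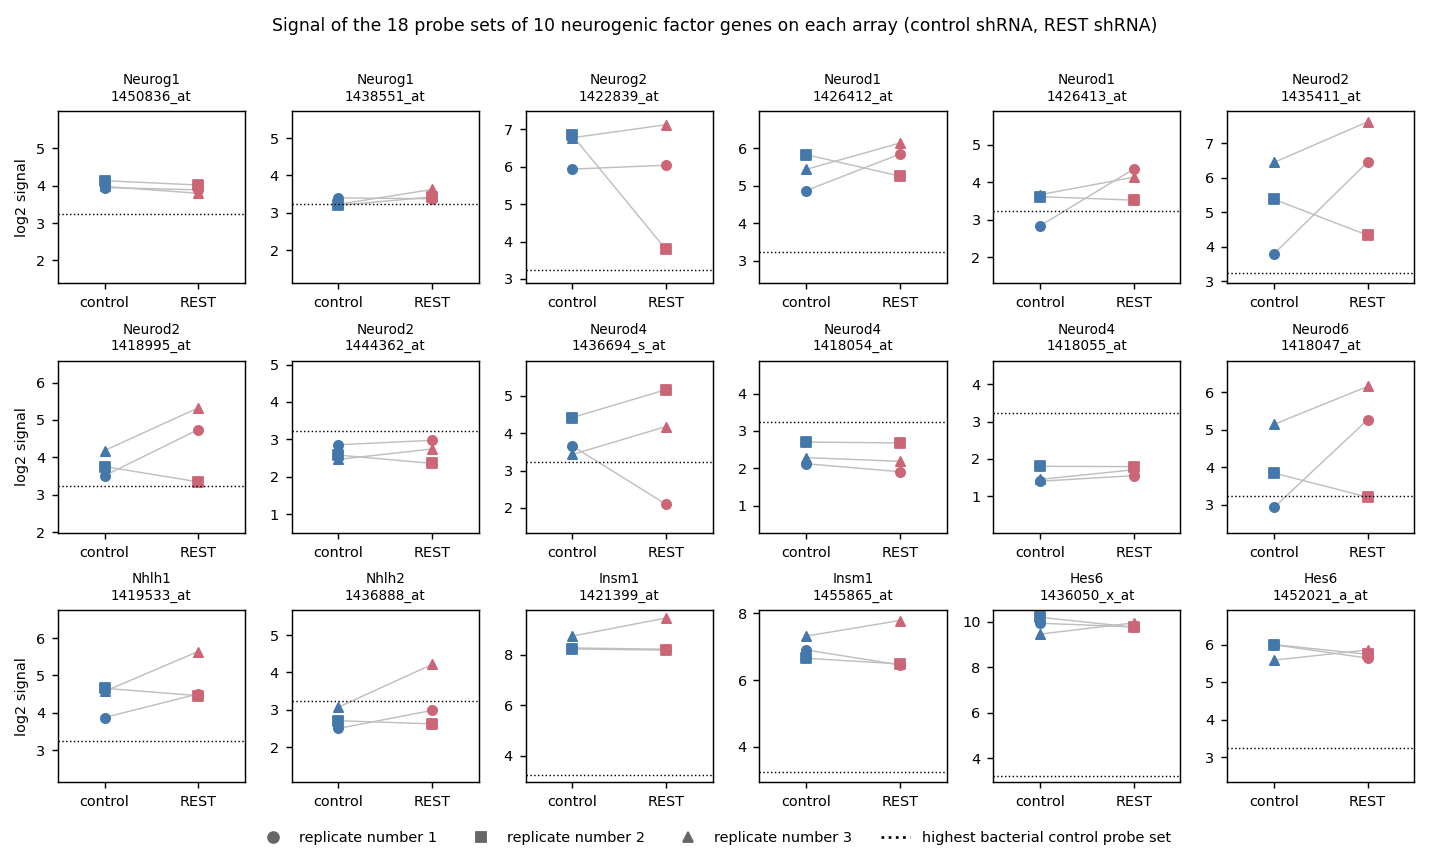
Log2 signal (y axis) of each of the 18 probe sets in control shRNA (blue) and REST shRNA (red) arrays, one panel per probe set, with marker shape giving the replicate number, grey lines joining equal numbers and a dotted line at 3.24, the highest bacterial control signal. The groups overlap in every panel, and in Neurog2 the REST shRNA array 2 sits at 3.79 while the other arrays lie between 5.94 and 7.12.

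What limits that result differs between genes. The 95% confidence interval of the difference lay within 1 log2 unit, a 2-fold change, on both sides for 8 of the 18 probe sets: both of Neurog1, both of Hes6, 1 of 2 of Insm1, the dimmest of Neurod2 and the 2 dimmer ones of Neurod4. For the other 10 a change past 1 log2 unit was inside the interval. Of the 8, the dimmest of Neurod2 and the 2 dimmer ones of Neurod4 had means of 2.66, 2.32 and 1.62, below the bacterial signal of 3.24. At that level a narrow interval does not bound a change of the transcript. Both of Neurog1, at 3.96 and 3.38, were little above it. The median range over the 6 arrays was 1.30 log2 units for all 18 members, the dim ones included. It was 0.84 over those probe sets of the whole table with a mean above the bacterial signal, a filter not put on the members. Of the 18 probe sets, 14 had a mean above that signal, as did 71.6% of all probe sets. Set against the highest bacterial control of each array, 11 exceeded it on all 6 arrays and 2, both of Neurod4, on 0.

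Of the proneural factors, Neurog1 was dim and even. Its brighter probe set read 3.95, 4.13 and 3.98 in control arrays 1, 2 and 3 and 3.89, 4.02 and 3.80 in REST shRNA arrays 1, 2 and 3, on the log2 scale. Each REST shRNA array was below the control of the same number, by at most 0.18, and the groups overlapped. The difference was -0.12 ± 0.15 (SE, log2; 95% CI -0.48 to 0.24), and that of the second probe set, nearer background, was 0.20 ± 0.15.

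Neurog2, which drives neurogenesis in the dorsal forebrain and spinal cord, had 1 array far from the others. Its single probe set read 5.94, 6.84 and 6.78 in control arrays 1, 2 and 3 and 6.04, 3.79 and 7.12 in REST shRNA arrays 1, 2 and 3 (log2 signal). REST shRNA array 2 was the lowest of the 6 and REST shRNA array 3 the highest, so the groups overlapped from both sides. By replicate number the log2 differences were 0.10, -3.05 and 0.35. The group difference of -0.87 ± 0.79 (SE, log2; 95% CI -2.74 to 1.01) became 0.07 when REST shRNA array 2 was left out and -1.60 when it was array 3. The astrocyte markers were low on the same array, by a mean of -1.70 log2 units against control array 2, and their part in the Neurog2 value was not tested.

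Among the differentiation factors, Neurod2 and Neurod6, both linked to maturing excitatory neurons of the forebrain, had wide and matching profiles. The brightest probe set of Neurod2 read 3.80, 5.38 and 6.45 in control arrays 1, 2 and 3 and 6.46, 4.34 and 7.63 in REST shRNA arrays 1, 2 and 3 (log2 signal). Neurod6 read 2.92, 3.84 and 5.15, and then 5.27, 3.20 and 6.16, in the same order. Both genes were lowest in control array 1 and highest in REST shRNA array 3, and both were lower with REST shRNA at number 2 but higher at numbers 1 and 3.

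The differences by replicate number were 2.66, -1.04 and 1.18 log2 units for Neurod2 and 2.35, -0.64 and 1.01 for Neurod6. The 2.35 is not a measured size, since Neurod6 on control array 1 was below that array's highest bacterial control of 3.15. The control arrays of Neurod2 alone spanned 2.65 log2 units, against a group difference of 0.93 ± 0.95 (SE, log2; 95% CI -1.32 to 3.18). For Neurod6 the controls spanned 2.22 and the difference was 0.91 ± 0.84 (SE, log2; 95% CI -1.09 to 2.90). The second probe set of Neurod2 followed the first in sign at each number (1.23, -0.41 and 1.14), while the third was near background and differed by 0.06. Leaving out REST shRNA array 2 gave differences of 1.84 for Neurod2, 1.22 for its second probe set and 1.74 for Neurod6. They were 0.19, 0.23 and 0.26 with REST shRNA array 3 left out instead, and 0.23, 0.50 and 0.38 with control array 1 left out. None of these reached an adjusted p of 0.05 in limma, and the lowest adjusted p of any member over the alternatives was 0.801.

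The likeness of these profiles was measured as the root mean square difference of log2 signals over the 6 arrays, after each gene was centred on its own mean. Between Neurod2 and Neurod6 it was 0.22 log2 units, and of 13822 genes outside the list with a mean above the bacterial signal 0 lay nearer to either of them. It is a description of 6 arrays that share their handling. Such a distance also depends on how much a gene varies, so distances of different members are not on a like scale. The median distance to the outside genes was 0.30 for Neurog1, 0.34 for Hes6, 0.56 for Nhlh1 and 1.32 for Neurod2. The nearest gene outside the list was Grm7, a metabotropic glutamate receptor, for Neurod2 (0.45) and Lgals2, a galectin, for Neurod6 (0.30), and for Neurog2 it was S100a1, a calcium-binding protein (0.25). Grm7 exceeded the highest bacterial control of the array on 3 of the 6 arrays and Lgals2 on 5, so part of each profile was background. By number, S100a1 differed by 0.27, -2.30 and 0.68 log2 units.

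Neurod4, which acts early in neuronal differentiation, was opposite in sign to Neurod2 and Neurod6 at numbers 1 and 2 and alike at number 3. Its brightest probe set read 3.66, 4.42 and 3.43 in control arrays 1, 2 and 3 and 2.10, 5.16 and 4.18 in REST shRNA arrays 1, 2 and 3 (log2 signal). Its highest array was REST shRNA array 2, where Neurog2 was lowest, and its lowest was REST shRNA array 1. The mean was 3.83 ± 0.52 (SD, n = 3) over the control arrays and, with a wider spread, 3.81 ± 1.56 (SD, n = 3) over the REST shRNA arrays, while the differences by number were -1.56, 0.74 and 0.75. The first of these is not a measured size either, since REST shRNA array 1 was below its own highest bacterial control of 2.88. The group difference was 0.83 with REST shRNA array 1 left out and -0.70 with array 2 left out. The profile distance to Neurod2 was 1.88 log2 units, and 97.4% of the outside genes lay nearer to Neurod2 than Neurod4 did. The probe set can match several transcripts by its name, and the other 2 of Neurod4 stayed below the highest bacterial control of every array, so they do not check it. The nearest outside gene was Grin2c, a glutamate receptor subunit, at 0.26.

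**Figure D2:**
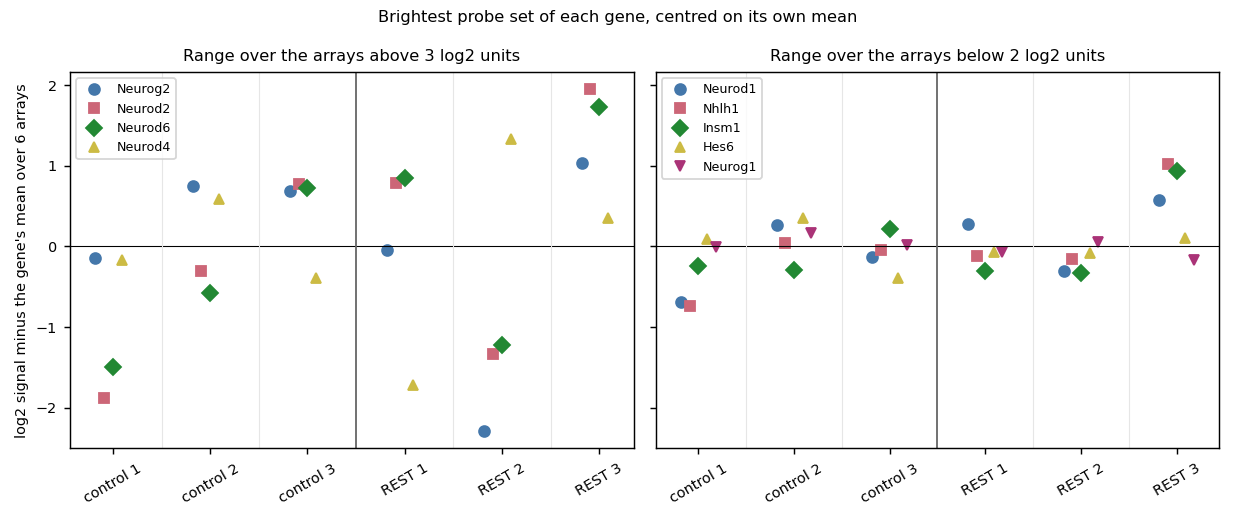
Log2 signal of the brightest probe set of 9 genes minus the gene's own mean over the 6 arrays (y axis), by array (x axis), with 1 marker per gene. Neurod2 and Neurod6 lie together on all 6 arrays, Neurog2 is lowest on REST shRNA array 2, and Neurod4 is highest on that array.

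Neurod1, which drives terminal differentiation of neurons and of endocrine cells, differed less between arrays. It read 4.87, 5.83 and 5.44 in control arrays 1, 2 and 3 and 5.85, 5.26 and 6.14 in REST shRNA arrays 1, 2 and 3 (log2 signal). The lowest array was again control array 1 and the highest again REST shRNA array 3, and the groups overlapped. The difference was 0.37 ± 0.32 (SE, log2; 95% CI -0.39 to 1.13). The second, dimmer probe set differed by 0.63 ± 0.31, with an unadjusted limma p of 0.0822 that was the smallest among the 18. By number it differed by 1.52, -0.09 and 0.47, and the first of these was taken against control array 1, where the probe set was below the array's highest bacterial control. For the brighter probe set the difference was 0.11 with control array 1 left out, 0.17 with REST shRNA array 3 left out and 0.61 with REST shRNA array 2 left out. For the second it was 0.36 with control array 1 left out.

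Nhlh1 and Nhlh2, bHLH factors of young neurons that have just left the cycle, had like profiles. Nhlh1 read 3.88, 4.66 and 4.57 in control arrays 1, 2 and 3 and 4.51, 4.46 and 5.64 in REST shRNA arrays 1, 2 and 3 (log2 signal). Nhlh2 read 2.501, 2.71 and 3.07, and then 2.98, 2.62 and 4.21, close to background in all but the last. REST shRNA array 3 was the highest for both. Their differences were 0.50 ± 0.37 and 0.51 ± 0.41 (SE, log2), and 0.11 and 0.04 with REST shRNA array 3 left out. For Nhlh1 the difference was 0.25 with control array 1 left out, and for Nhlh2 it was 0.84 with REST shRNA array 2 left out. In profile Nhlh1 lay nearest to Pfkfb4, a regulator of glycolysis (0.05), and among the members to Nhlh2 (0.21), which was near background, then Neurod1 (0.27) and Insm1 (0.29).

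Insm1, the zinc finger factor, was bright on every array. Its brighter probe set read 8.28, 8.24 and 8.75 in control arrays 1, 2 and 3 and 8.23, 8.19 and 9.47 in REST shRNA arrays 1, 2 and 3 (log2 signal), and the dimmer one 6.90, 6.65 and 7.32 and then 6.45, 6.48 and 7.78. In both probe sets the arrays numbered 3 were the highest of their group. The differences were 0.21 ± 0.37 and -0.05 ± 0.39 (SE, log2), of opposite sign. The nearest profile was that of Kcnip2, a potassium channel interacting protein (0.10).

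Hes6, the Hes family member, was also bright on every array. By their names both of its probe sets can match several transcripts. With such probe sets left out, no value of Hes6 remained, so its signal and interval may not be of Hes6 alone. Its brighter probe set read 9.94, 10.20 and 9.47 in control arrays 1, 2 and 3 and 9.78, 9.77 and 9.96 in REST shRNA arrays 1, 2 and 3 (log2 signal). All REST shRNA arrays lay within the control range, and the difference was -0.04 ± 0.22 (SE, log2; 95% CI -0.55 to 0.48). The other probe set, with a difference of -0.11 ± 0.18, also had its lowest control at number 3. The nearest profiles were those of Atp5d, a subunit of the mitochondrial ATP synthase, for Hes6 (0.04), Mtg2, a mitochondrial GTPase, for Neurog1 (0.03) and Map3k9, a kinase, for Neurod1 (0.12).

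Read by replicate number, the 18 probe sets divided. At number 1, 10 were higher with REST shRNA and 8 lower, with a median difference of 0.11 log2 units. At number 2, 2 were higher and 16 lower, with a median of -0.18, and at number 3, 16 were higher and 2 lower, with a median of 0.48. Over all probe sets 49.6%, 50.3% and 53.2% were higher at numbers 1, 2 and 3. No member was higher at all 3 numbers, beside 12.2% of all probe sets, and 2 were lower at all 3, 1 of Neurog1 and 1 dim one of Neurod4, beside 11.3%. Probe sets of a gene share its transcript, so these counts are not of independent values. Of the 18, 10 had their highest signal on REST shRNA array 3, the highest array for 22.3% of all probe sets, and 7 their lowest on control array 1, the lowest for 12.2%.

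**Figure D3:**
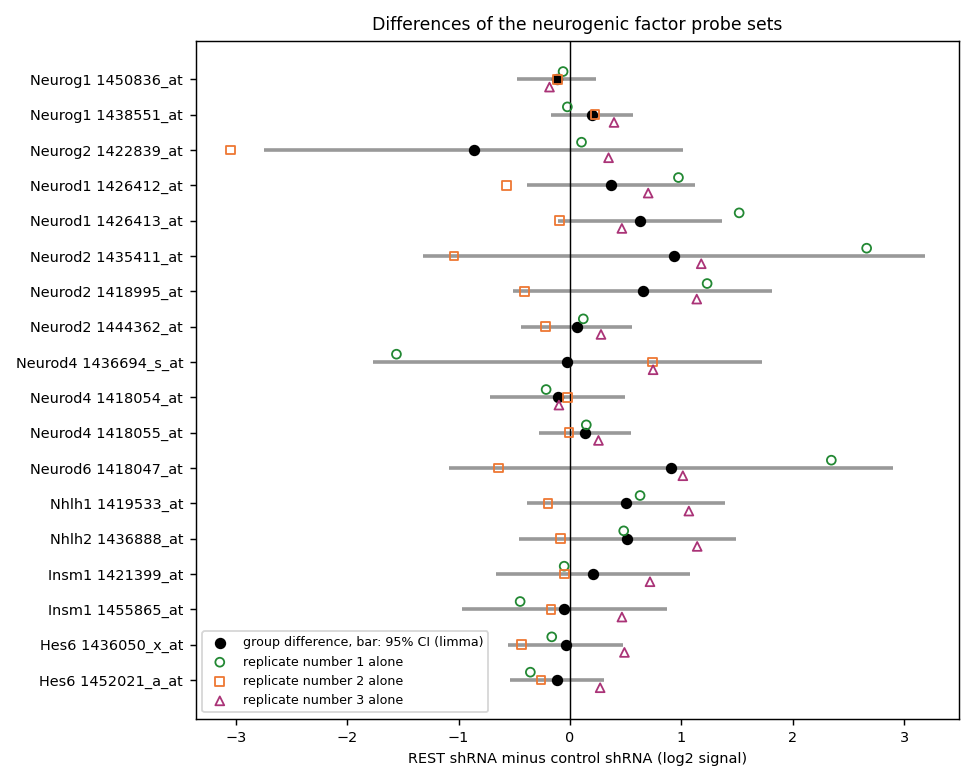
REST shRNA minus control shRNA in log2 signal (x axis) for each member probe set: filled points are group differences, bars their 95% confidence intervals in limma, and open symbols the difference at each replicate number. Every interval includes 0. The number 2 symbols lie below those of numbers 1 and 3 for Neurog2, Neurod1, Neurod2, Neurod6, Nhlh1 and Nhlh2. The same holds for the brighter probe set of Hes6 and the dimmest of Neurod4.

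The partners, opponents and followers of these factors were read at the brightest probe set of each gene, and no listed gene passed the adjusted threshold in limma. Nor did any of these 4 lists hold a gene at an unadjusted p under 0.05. Of 3 E proteins, 1 had a positive difference and 2 a negative one, with a median of -0.003 log2 units. For Tcf4, the groups did not overlap at the brightest probe set, with 11.09, 10.77 and 11.16 in control arrays against 10.72, 10.58 and 10.69 in REST shRNA arrays (log2 signal), a difference of -0.34 ± 0.17 (SE). All 6 probe sets of Tcf4 were negative, from -0.36 to -0.10. The groups overlapped at most of them, including the next in brightness, which differed by -0.15 and -0.22. Over all probe sets, 3.9% had REST shRNA lower without overlap. Tcf3 differed by 0.32 ± 0.23, and all 3 of its probe sets were positive.

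Of the 9 bHLH inhibitors, 8 read lower in REST shRNA, and the list's median difference was -0.23 log2 units. Hey2, a Notch response gene, differed by -0.72 ± 0.39 (SE, log2) and Hes1, the main Notch-driven repressor of proneural genes, by 0.37 ± 0.26 as the only positive one. The list mean differed by -0.41, -0.47 and 0.21 at numbers 1, 2 and 3. Of 6 other neural bHLH factors measured, 5 were positive and 1 negative with a median of 0.08, and 2 of the 6, Olig1 and Olig2, had a mean above the bacterial signal. Ptf1a and Atoh1, the pair with the smallest p there, differed by 0.33 ± 0.21 and -0.26 ± 0.18 at background level.

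Among 18 genes known to act downstream of or to follow proneural factors, 8 had a positive difference and 10 a negative one, with a median of -0.06 log2 units. Dll1, the Notch ligand that proneural factors switch on, read 10.65, 10.36 and 10.81 in control arrays 1, 2 and 3 and 9.95, 9.51 and 10.54 in REST shRNA arrays 1, 2 and 3. It was lower at each number, the groups overlapped by REST shRNA array 3, and the difference was -0.61 ± 0.28 (SE, log2). Sstr2, a somatostatin receptor, differed by 0.54 ± 0.24, with no overlap between groups, beside 4.35% of all probe sets with REST shRNA higher without overlap. The list mean differed by 0.03, -0.46 and 0.36 at numbers 1, 2 and 3. Eomes and Tbr1, markers of the cortical excitatory lineage that follow Neurog2, had means below the bacterial signal. Eomes exceeded the bacterial controls on 2 arrays and read 4.29 on REST shRNA array 3, a difference of 1.05 at number 3.

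Neuron markers are set beside the factors as a description, with no test between the lists. Of 10 neuron markers 9 were positive, with a median log2 difference of 0.80, and 4 (Snap25, Rbfox3, Nefl and Gap43) were at an unadjusted p under 0.05 in limma, 0 at the adjusted threshold. Over all 45037 probe sets, 52.6% were positive, and 692 were higher and 868 lower at an unadjusted limma p under 0.05. Tubb3 is counted both among the neuron markers and in the downstream list. The median of the 10 neurogenic factors at their brightest probe sets was 0.29. On REST shRNA array 2, where 16 of the 18 factor probe sets lay below control array 2, the neuron markers were higher than control array 2 by a mean of 0.77 log2 units, as they were by 1.04 and 0.96 at numbers 1 and 3. At number 2, 8 of the 10 were higher, led by Nefl (2.89), Nefm (1.83), Snap25 (1.81) and Gap43 (1.30), while Tubb3 (-0.66) and Syt1 (-0.79) were lower. Dcx and Cdk5r1, neuronal genes of the downstream list, differed there by -1.16 and -1.11. Astrocyte markers had a median of -0.37 with all 7 negative, 1 of them (Slc1a2) at an unadjusted limma p under 0.05, and their list mean differed by 0.01, -1.70 and 0.15 at the 3 numbers. Progenitor markers had a median of -0.21 with 7 of 8 negative, and the oligodendrocyte lineage a median of 0.06, with list means of 0.65, -0.34 and 0.75 by number. The microglial list had a median of 0.13 and a mean level of 3.00 to 3.10 in control and 3.13 to 3.36 in REST shRNA arrays, with Aif1 at an unadjusted p under 0.05 and a mean below the bacterial signal. The part of these cell type markers in the factor values was not tested.

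**Figure D4:**
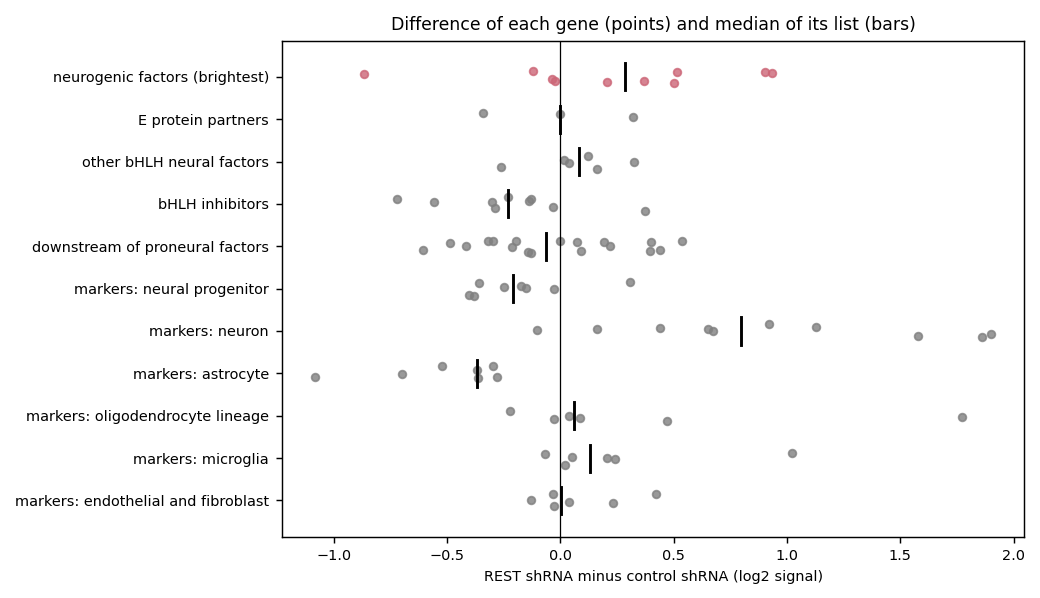
REST shRNA minus control shRNA in log2 signal (x axis) for each gene at its brightest probe set (points), by list (y axis), with a bar at the median of each list. The median of the neurogenic factors (red) is 0.29, that of the neuron markers 0.80 and that of the bHLH inhibitors -0.23.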

How the data were processed

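Values are the log2 signals per probe set that the authors deposited in the series table. The log2 unit was read from their range, 1.00 to 14.2, and how they were background-corrected, summarised and normalized was not found in the labels. Sorted values of the arrays differed from their mean by 0.154 at most, so no scaling was added. Such a table shows differences relative to other genes of an array. Groups and replicate numbers came from the sample titles. Gene names came from the array's annotation table, updated by gene number through RefSeq (GRCm38.p6, names only): 34958 had 1 gene, 932 several and 9211 are unnamed here. Of those with 1 gene, 34754 matched and 0 symbols changed.

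Group differences were tested two-sided on 45037 probe sets, 64 control spots left out, with limma 3.58.1 (lmFit, eBayes; R 4.3.3). Group was the only term, and p-values were adjusted over all of them by Benjamini-Hochberg, threshold 0.05. It was tested on simulated data. The 3 arrays per group limit the precision. No depth exists for arrays. The members and lists were chosen with earlier results of these data known. Some listed genes are not reported here. Named genes are the members, Rest, the nearest profile of each member above the bacterial signal, and per pathway list the genes past adjusted p 0.05, else at unadjusted p under 0.05, else the 2 with the smallest p, read at the brightest probe set. Marker genes and Eomes, Tbr1, Dcx, Cdk5r1, Olig1 and Olig2 were named after their values were seen.

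Arrays with the same number deviated together from their group means (correlations 0.117, 0.282 and 0.402 over probe sets), all above 0.1 but weak at number 1. The numbers were taken as pairs for the differences by number and for the replicate block. The limma intervals, SE and main p-values come from the fit by group alone, which ignores the pairs. For control array 1 the correlation with REST shRNA array 2 (0.231) exceeded that with its own number. The alternatives were the replicate block, scalings, filters on dim probe sets, variance models, array weights, 1 probe set per gene, no multi-transcript probe sets and leaving out arrays.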

Additional observations from a re-analysis of the deposited data

How the results depend on the processing

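Under 19 alternatives, 3 of which (leaving out both arrays of a number) were added after seeing the data, 0 probe sets were called over the whole table and 0 of the members, in limma. With a replicate block, the count of member probe sets at an unadjusted p under 0.05 was 0 and that of all probe sets 1932, and the block changed no call. In limma with the block, unadjusted p fell for some members and rose for others. It was 0.139 against 0.317 for Neurod6, and 0.0997 against 0.0822 for the second probe set of Neurod1, the smallest in both fits. The member count under 0.05 was 3 with array weights (the second probe sets of Neurod1 and Neurod2, and Neurod6). It was also 3 without both arrays numbered 2 (both of Neurod1 and the second of Neurod2). Leaving out 1 array gave 0 to 3, with 3 without REST shRNA array 2, the same 3 as with array weights. The weight was lowest for REST shRNA array 2 (0.377) and highest for control array 1 (3.14), so these 2 settings are not independent. Over the whole table the counts at that threshold were 2561 with array weights, 2780 with REST shRNA array 2 left out and 2048 with control array 2 left out too, against 1560. They were 2713 with REST shRNA array 1 left out and 837 with control array 1 left out, so the whole-table count also moved with other arrays, up or down. The member count was 0 in both of these settings. The median member difference ran from 0.01 to 0.28 log2 units when arrays were left out and to 0.29 with 1 probe set per gene.

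Of 318 alternative values of single probe sets, 294 kept their sign and 24 turned, all uncalled. Centring each array on its median gave 0.0027 for the brighter probe set of Hes6 and 0.0168 for the brightest of Neurod4, which quantile normalization put at 0.0336. Without both arrays numbered 1, these read 0.0273 and 0.7455, the second of Hes6 0.0059 and the second of Insm1 0.148. Without both numbered 2, Neurog2 read 0.2252, the brighter of Hes6 0.1629 and the second of Insm1 0.0097. Without both numbered 3, the brighter of Insm1 read -0.0491 and the dimmest of Neurod2 -0.0501. Leaving out 1 array in turn, the difference ranged from -1.6015 to 0.0652 for Neurog2, from -0.6974 to 0.8344 for the brightest of Neurod4 and from -0.3222 to 0.0629 for its second. It ranged from -0.2123 to 0.4249 and from -0.4884 to 0.1758 for the brighter and second of Insm1, from -0.2386 to 0.1302 for the brighter of Hes6 and from -0.082 to 0.226 for the dimmest of Neurod2. The cause was not tested. Probe sets near the bacterial signal bound a level only loosely.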
